A study of Oryctolagus cuniculus with 17 samples.

Results

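Macrophages and monocytes were followed through 10 marker genes, MARCO, MRC1, C1QA, C1QB, CD163, MERTK, CD68, CSF1R, CD14 and SPP1, in RNA-seq of whole lung from preterm rabbit pups kept in hyperoxia or normoxia. The genes were taken as a list of symbols, and the row of the count table with that human gene name was used for each. All 10 symbols were found, with 1 row each, among the 13827 rows of the table, and all 10 were among the 13142 rows with enough counts to be tested. By day 7 the levels of the CD68 locus, CD163, MERTK and SPP1 were higher in hyperoxia than in normoxia and that of MARCO was lower. Those of MRC1, C1QA, C1QB, CSF1R and CD14 did not pass the test on any single day.

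The pups were New Zealand white rabbits delivered by hysterectomy on day 28 of gestation, so every group, controls included, was born preterm. They were kept at 95% oxygen (hyperoxia, groups HT3, HT5 and HT7) or at 21% oxygen (normoxia, NT3, NT5 and NT7), and the number in each name is the postnatal day, 3, 5 or 7, on which the lung was taken. The paper names the right lung for RNA in its methods and the left lung in its results. Each group held 3 samples except HT5, which held 2, giving 8 hyperoxia and 9 normoxia samples. Poly(A) RNA of the homogenised lung was made into stranded libraries, and the count tables summed to between 13123731 and 18111086 counts per sample with each locus counted once. Neither litter nor sex is given for the samples, so the p-values measure the spread between these samples alone. The library names fall into separate runs for hyperoxia and normoxia, and what these runs stand for is not stated, so any effect of them cannot be told apart from that of oxygen.

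Alveolar macrophages live in the airspace, where they take up particles and spent surfactant through scavenger and lectin receptors such as those encoded by MARCO and MRC1. Interstitial macrophages sit in the tissue around vessels and airways, and are known for complement C1q and for receptors that clear dying cells and haemoglobin. Monocytes carry CD14 from the blood into an injured lung, and the macrophages they become can pass through a state with high SPP1 and low levels of the resident markers. These assignments are not exclusive. MRC1 is also made by interstitial macrophages and some endothelial cells, MERTK by alveolar macrophages, CD163 by monocytes, CD14 by neutrophils and epithelium at lower levels, and SPP1 by some epithelial and mesenchymal cells. In RNA from whole lung, fewer cells of a type and less RNA per cell cannot be told apart.

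The positions are those of the deposited table, whose build is named OryCun2.0 in the submitters' processing notes. C1QB (ENSOCUG00000015143) lies at chr13:130475429-130481625 and C1QA (ENSOCUG00000029367) at chr13:130491485-130493746, both on the minus strand, with C1QC between them at chr13:130485104-130487967. CSF1R (ENSOCUG00000021056) and CD14 (ENSOCUG00000004218) are on chromosome 3, at 31834346 to 31860154 and at 22754438 to 22755771. MARCO (ENSOCUG00000006893) is on chromosome 7 at 63885215 to 63921300, MRC1 (ENSOCUG00000003247) on chromosome 16 at 43401057 to 43512562, and CD163 (ENSOCUG00000003958) on chromosome 8 at 33365792 to 33389868. MERTK (ENSOCUG00000012995) is on the plus strand of chromosome 2 at 96867200 to 96983670, and SPP1 (ENSOCUG00000022536) is on chromosome 15 at 62156544 to 62163765. CD68 (ENSOCUG00000010383) is on chromosome 19 at 11597641 to 11600782. Its counts are those of a locus of 7 rows with identical values, all on the minus strand, that also holds EIF4A1, an RNA helicase of translation initiation, MPDU1 and the small nucleolar RNAs SNORA48 and SNORD10. Every CD68 value below is therefore the value of that locus, in which the share of CD68 itself cannot be separated.

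Levels are given as CPM, the counts of a gene scaled to a fixed library total after TMM normalisation, and they compare samples for 1 gene, not genes with each other, since they are not per length. Hyperoxia was compared with normoxia on each day by edgeR's quasi-likelihood test in a fit over all 17 samples and 13142 rows, with Benjamini-Hochberg adjustment over all of them, rows that share a locus included, and a gene passed at an adjusted p under 0.05. A differentially expressed gene (DEG) had an adjusted p under 0.01 and a log2 fold change beyond 2 or -2. On day 3, 0 of the 10 markers passed, against 1.03% of all rows, and 0 were DEGs, against 0.0533%. At an unadjusted p under 0.05 the count was also 0, and DESeq2 called 0. On day 5, the CD68 locus and CD163 rose, 2 of 10 against 31.3% of all rows, with 0 DEGs against 1.58%; at an unadjusted p under 0.05 the count of markers was 2, and DESeq2 made CD163 a DEG. On day 7, the CD68 locus, CD163, MERTK and SPP1 rose and MARCO fell, 5 of 10 against 47.4% of all rows, and MARCO was the single DEG, against 4.59%. The share of the markers that passed on day 7 was thus close to that of all rows. The median log2 fold change of the 10 markers was 0.26 on day 3, 0.32 on day 5 and 0.44 on day 7, and that of all rows was 0.00, -0.02 and -0.01.

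**Figure D1:**
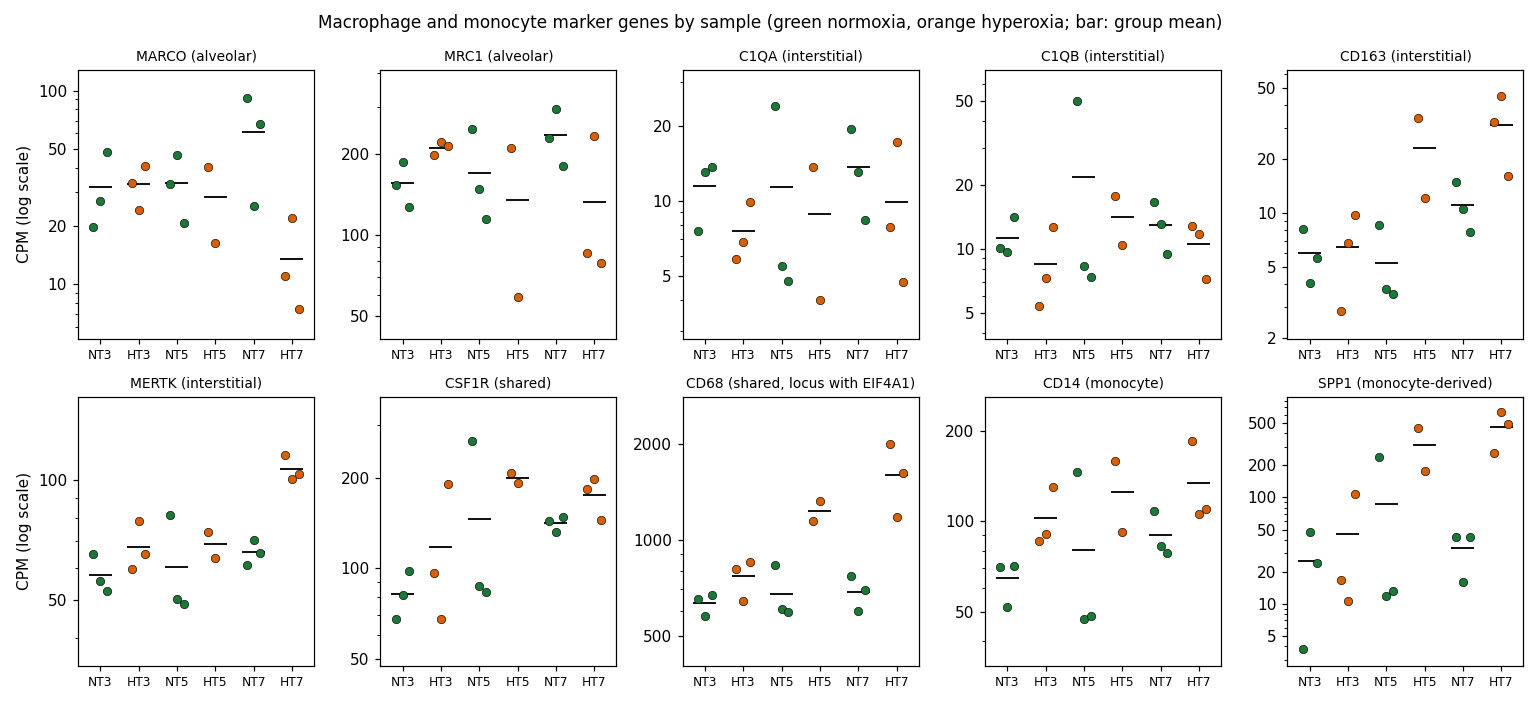
Level of each of the 10 marker genes in CPM on a log axis, by group, with 1 point per sample (green, normoxia; orange, hyperoxia) and a bar at the group mean. The group mean is lowest in HT7 for MARCO and highest in HT7 for SPP1, MERTK, CD163 and the CD68 locus, and single HT5 samples reach into the HT7 range for all of these but MERTK, while C1QA, C1QB and MRC1 overlap between hyperoxia and normoxia on days 5 and 7.

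MARCO encodes a scavenger receptor that binds unopsonised particles and is a defining gene of resident alveolar macrophages. On day 3, its level was 19.7, 26.8 and 48.2 CPM in the NT3 samples and 33.3, 24.3 and 40.6 CPM in the HT3 samples. On day 5, it was 32.7, 46.5 and 20.7 CPM in NT5 and 40.2 and 16.4 CPM in HT5. On day 7, it was 91.5, 25.3 and 67.0 CPM in NT7 and 11.1, 21.8 and 7.48 CPM in HT7. The groups overlapped on days 3 and 5, while on day 7 every hyperoxia sample lay below every normoxia sample, with the gap set by NT7 replicate 2 and HT7 replicate 2. The mean fell from 61.3 ± 33.5 CPM (SD, n = 3) in NT7 to 13.5 ± 7.47 CPM (n = 3) in HT7. The log2 fold change was -2.19 (SE 0.51, 95% interval -3.27 to -1.11), 4.56-fold lower, with an adjusted p of 0.0033 by edgeR's quasi-likelihood test. It was 0.05 (95% interval -1.02 to 1.12) on day 3 and -0.24 (-1.44 to 0.96) on day 5. MARCO still passed on day 7 when any 1 library was left out, with log2 fold changes between -2.72 and -1.78. It was no longer a DEG without HT7 replicate 1, HT7 replicate 3 or NT7 replicate 1, at -2.07, -1.89 and -1.78. Nor was it a DEG in a fit of the NT7 and HT7 groups alone (-2.18, adjusted p 0.0129 by edgeR).

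MRC1, the mannose receptor CD206, is the other alveolar gene of the list. Its level was 153.4, 186.9 and 127.2 CPM in NT3 and 197.7, 221.5 and 213.6 CPM in HT3, so all HT3 samples were above all NT3 samples, but the difference did not pass. On day 5, it was 248.2, 148.2 and 114.5 CPM in NT5 and 210.6 and 58.8 CPM in HT5. It was 229.8, 294.3 and 180.7 CPM in NT7 and 85.5, 233.4 and 78.9 CPM in HT7. The groups overlapped on days 5 and 7, and on day 7 through HT7 replicate 2, which lay among the normoxia samples. The log2 fold changes were 0.44, -0.34 and -0.83 on days 3, 5 and 7, and the 95% interval on day 7 was -1.77 to 0.12, with an adjusted p of 0.143 by edgeR's quasi-likelihood test. Without HT7 replicate 2 the day 7 value was -1.505 and passed, with an adjusted p of 0.0093 by the same test.

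C1QA and C1QB encode chains of complement C1q, which opsonises dying cells and is made in the lung mainly by interstitial macrophages and their kin. C1QA was at 7.56, 13.1 and 13.7 CPM in NT3, 5.86, 6.87 and 9.92 CPM in HT3, 19.48, 13.02 and 8.41 CPM in NT7 and 7.84, 17.2 and 4.71 CPM in HT7. C1QB was at 10.03, 9.62 and 14.2 CPM in NT3, 5.38, 7.31 and 12.6 CPM in HT3, 16.54, 13.02 and 9.47 CPM in NT7 and 12.7, 11.7 and 7.22 CPM in HT7. Both genes overlapped between hyperoxia and normoxia on these days. On day 5, NT5 replicate 1 stood at 23.99 CPM of C1QA and 50.0 CPM of C1QB, against 5.47 and 4.75 CPM, and 8.27 and 7.39 CPM, in the other NT5 samples. The HT5 samples were at 13.68 and 4.004 CPM of C1QA and at 17.8 and 10.4 CPM of C1QB. No difference passed, with log2 fold changes of -0.60, -0.37 and -0.46 for C1QA and of -0.42, -0.63 and -0.30 for C1QB on days 3, 5 and 7. The intervals were wide, on day 7 from -1.78 to 0.86 for C1QA and from -1.54 to 0.94 for C1QB, so changes in either direction remain within them. Without NT5 replicate 1 the day 5 values turned positive, to 0.78 for C1QA and 0.85 for C1QB, and neither passed.

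CD163, the receptor that takes up haemoglobin bound to haptoglobin, was higher in hyperoxia on days 5 and 7. It was at 8.12, 4.08 and 5.63 CPM in NT3 and at 2.84, 6.81 and 9.74 CPM in HT3, which overlapped. On day 5, it was at 8.54, 3.76 and 3.51 CPM in NT5 and at 33.8 and 12.1 CPM in HT5. On day 7, it was at 15.0, 10.5 and 7.85 CPM in NT7 and at 32.4, 45.1 and 16.0 CPM in HT7. On both later days every hyperoxia sample was above every normoxia sample. The log2 fold change was 0.12 (95% interval -0.99 to 1.24) on day 3, 2.12 (SE 0.57, 95% interval 0.90 to 3.34) on day 5 and 1.49 (SE 0.50, 95% interval 0.42 to 2.56) on day 7. The adjusted p by edgeR's quasi-likelihood test was 0.0116 on day 5 and 0.0260 on day 7. Both calls rested on single libraries. The day 5 value was 1.203 (adjusted p 0.166 by edgeR) without HT5 replicate 1. The day 7 values were 1.46, 1.13, 1.45 and 1.29 without HT7 replicate 1, HT7 replicate 2, NT7 replicate 2 and NT7 replicate 3, and none of these 4 passed.

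MERTK, a receptor kinase with which macrophages engulf apoptotic cells through the bridging ligands GAS6 and protein S, varied little between samples. It was at 65.0, 55.7 and 52.7 CPM in NT3, 59.7, 78.9 and 65.2 CPM in HT3, 81.7, 50.2 and 48.7 CPM in NT5 and 74.05 and 63.6 CPM in HT5. Hyperoxia and normoxia overlapped on both days. On day 7, it was at 61.1, 70.7 and 65.6 CPM in NT7 and at 115.3, 100.4 and 103.5 CPM in HT7, and the HT7 samples stood above every other sample of the study. The log2 fold change on day 7 was 0.69 (SE 0.17, 95% interval 0.32 to 1.06), 1.62-fold, with an adjusted p of 0.0043 by edgeR's quasi-likelihood test, and it passed without any 1 library. On days 3 and 5, it was 0.23 (-0.14 to 0.60) and 0.19 (-0.22 to 0.61).

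CSF1R, the receptor for the growth factors M-CSF and IL-34 on which most macrophages depend, marks monocytes and macrophages of every type. It was at 67.7, 81.4 and 97.7 CPM in NT3, 96.3, 67.6 and 190.2 CPM in HT3, 265.7, 87.4 and 83.2 CPM in NT5 and 207.4 and 191.8 CPM in HT5. It was at 143.3, 132.3 and 148.2 CPM in NT7 and 183.1, 199.0 and 145.2 CPM in HT7. The groups overlapped on all 3 days, on day 5 through NT5 replicate 1, the highest of the 17 samples. The log2 fold changes were 0.52, 0.46 and 0.32 on days 3, 5 and 7, and the interval on day 7 was -0.53 to 1.16. CSF1R passed on day 5 only without NT5 replicate 1, at 1.23 with an adjusted p of 0.0158 by edgeR's quasi-likelihood test.

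The CD68 locus, whose macrophage gene encodes a lysosomal glycoprotein, was at 654.6, 576.5 and 670.3 CPM in NT3 and 810.4, 642.3 and 854.9 CPM in HT3. It was at 831.1, 608.4 and 595.5 CPM in NT5 and 1148 and 1321 CPM in HT5, and at 768.1, 598.9 and 697.8 CPM in NT7 and 1999, 1179 and 1614 CPM in HT7. On days 5 and 7 every hyperoxia sample was above every normoxia sample, and on day 3 the groups overlapped. The log2 fold change was 0.28 (95% interval -0.11 to 0.67) on day 3, 0.86 (SE 0.21, 0.43 to 1.301) on day 5 and 1.21 (SE 0.18, 0.82 to 1.61) on day 7. The adjusted p by edgeR's quasi-likelihood test was 0.0056 on day 5 and 0.000119 on day 7. Without HT5 replicate 2 the day 5 value was 0.74 and did not pass, with an adjusted p of 0.0765 by edgeR, whereas the day 7 call held without any 1 library. Because CD68 and EIF4A1 share these counts, which of the locus' genes rose cannot be told apart.

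CD14, the co-receptor that hands bacterial lipopolysaccharide to TLR4, is the list's monocyte gene. It was at 70.6, 52.0 and 71.3 CPM in NT3 and 86.2, 91.1 and 129.8 CPM in HT3, with every HT3 sample above every NT3 sample. On day 5, it was at 145.3, 47.4 and 48.4 CPM in NT5 and 158.8 and 92.0 CPM in HT5. On day 7, it was at 108.1, 83.1 and 78.6 CPM in NT7 and 184.9, 105.8 and 110.1 CPM in HT7, and both days overlapped. The log2 fold changes were alike on the 3 days, 0.66, 0.64 and 0.57, and none passed, with intervals of -0.14 to 1.47, -0.25 to 1.54 and -0.23 to 1.37. Without NT5 replicate 1 the day 5 value was 1.39 and passed, with an adjusted p of 0.0057 by edgeR's quasi-likelihood test.

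SPP1 encodes osteopontin, a secreted integrin ligand and a marker of monocyte-derived macrophages in injured and fibrotic lung. It varied more between samples than any other gene of the list. On day 3, it was at 3.75, 47.7 and 24.3 CPM in NT3 and 16.8, 10.7 and 107.8 CPM in HT3. On day 5, it was at 237.5, 11.8 and 13.3 CPM in NT5 and 443.7 and 178.1 CPM in HT5. On day 7, it was at 42.9, 16.0 and 42.2 CPM in NT7 and 263.7, 627.2 and 492.7 CPM in HT7. The groups overlapped on day 3, and on day 5 through NT5 replicate 1 alone. On day 7 the lowest hyperoxia sample was far above the highest normoxia sample. The mean was 33.7 ± 15.3 CPM (SD, n = 3) in NT7 and 461.2 ± 183.8 CPM (n = 3) in HT7. The log2 fold change was 3.77 (SE 1.08, 95% interval 1.47 to 6.08), 13.7-fold, with an adjusted p of 0.0175 by edgeR's quasi-likelihood test. DESeq2 made SPP1 a DEG on day 7 and edgeR did not. Without NT7 replicate 2 the value was 3.44 and did not pass, with an adjusted p of 0.0685 by edgeR. On day 5, the log2 fold change was 1.83 (-0.72 to 4.38), which did not pass with NT5 replicate 1 in the fit. Without that sample it was 4.63, with an adjusted p of 0.0103 by edgeR.

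**Figure D2:**
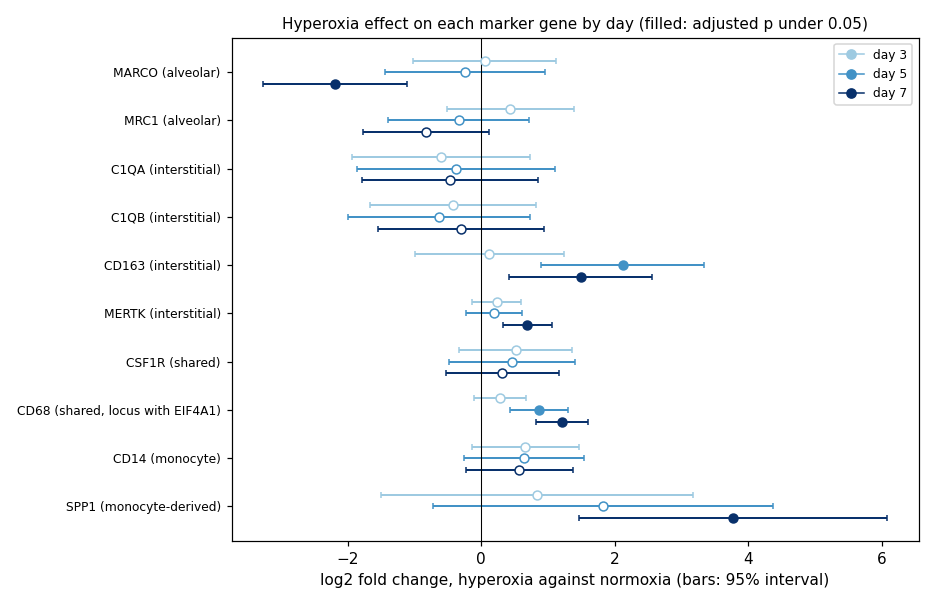
Log2 fold change of hyperoxia against normoxia for each marker gene on days 3, 5 and 7, with 95% intervals from edgeR's quasi-likelihood fit, where filled points have an adjusted p under 0.05. On day 7 MARCO lies at -2.19 and SPP1 at 3.77, while the C1QA and C1QB intervals span 0 on every day.

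In some samples most markers were high or low together. NT5 replicate 1 was the highest of its group for 9 of the 10 markers, MARCO being the exception. HT5 replicate 1 was the higher of its pair for 9, all but the CD68 locus, and HT3 replicate 3 the highest for 8. In others they were mixed, as in HT7 replicate 2, the highest of its group for 6 and the lowest for 3. Day 5 was therefore the day that depended most on single samples. Without NT5 replicate 1, 6 of the 10 markers passed on day 5, namely the CD68 locus, CSF1R, CD163, MERTK, CD14 and SPP1, against 29.6% of all rows in that fit. Without HT5 replicate 1 the CD68 locus alone passed, against 32% of all rows, and without HT5 replicate 2 CD163 alone passed, against 8.65%. With 1 of 2 HT5 samples left out, the remaining one was assumed to vary like the other groups.

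**Figure D3:**
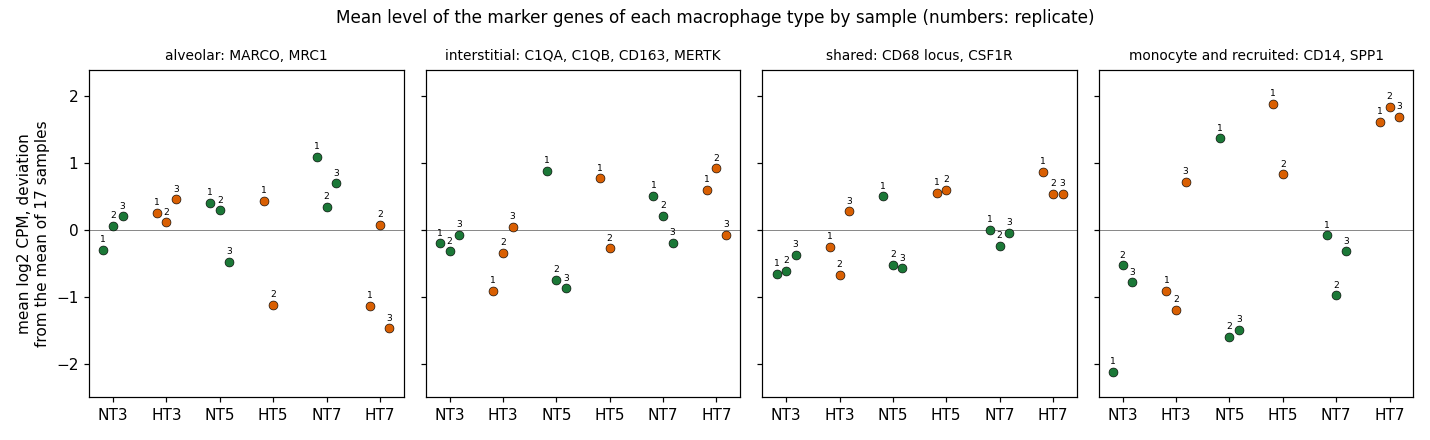
Mean level of the alveolar, interstitial, shared and monocyte or recruited marker genes in each sample, as the deviation of log2 CPM from the mean of the 17 samples, with the replicate number beside each point (green, normoxia; orange, hyperoxia). The recruited pair lies between 1.62 and 1.84 in the HT7 samples, and the alveolar pair is below 0 in 2 of them.

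The genes were also averaged by type, as a description with no test. The alveolar pair MARCO and MRC1 stood at 1.10, 0.35 and 0.70 in the NT7 samples and at -1.13, 0.08 and -1.47 in the HT7 samples, in log2 units around the mean of the 17 samples. The pair CD14 and SPP1 stood at -0.08, -0.97 and -0.32 in NT7 and at 1.62, 1.84 and 1.70 in HT7. Neither pair overlapped between the groups on that day. Taken alone, MARCO and SPP1 did not overlap either, whereas MRC1 and CD14 overlapped and did not pass. The 4 interstitial genes did overlap, at 0.52, 0.21 and -0.19 in NT7 and 0.60, 0.92 and -0.07 in HT7, with CD163 and MERTK higher and the C1q genes not. The shared pair CSF1R and the CD68 locus stood at 0.003, -0.23 and -0.04 in NT7 and at 0.87, 0.55 and 0.55 in HT7, within the range of the interstitial genes in HT7. On day 3, the recruited pair was at -2.12, -0.53 and -0.78 in NT3 and at -0.91, -1.19 and 0.72 in HT3, and the groups overlapped.

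Ratios of counts within a sample do not depend on the scaling of the libraries, and the pairs were picked after their values were seen. There were between 23.8 and 65.9 SPP1 counts per MARCO count in the HT7 samples and between 10.86 and 11.03 in HT5. The ratio was 0.443 to 2.66 in HT3, 0.468 to 0.632 in NT7 and 0.190 to 1.78 in NT3, and in NT5 it was 0.253 to 7.26, with the highest value in replicate 1. For CD163 to MARCO the ratio was 2.07 to 2.92 in HT7, 0.739 to 0.841 in HT5 and 0.0853 to 0.281 in HT3, and no normoxia sample exceeded 0.413. Genes of different length enter these ratios, so they compare samples and not the abundance of both genes. The HT5 and HT7 samples of both pairs lay above every NT3, NT5, NT7 and HT3 sample. For CSF1R to MRC1 the ratio was 0.853 to 2.14 in HT7 and 0.45 to 0.82 in NT7, with NT5 and HT3 reaching 1.07 and 0.891, and for C1QA to C1QB it was 0.615 to 1.46 in HT7 and 0.888 to 1.18 in NT7, so the HT7 samples overlapped normoxia samples in both of these pairs.

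Averaged over the 3 days, 6 of the 10 markers passed, against 54.4% of all rows, in a test of the mean hyperoxia effect. CD163 had a mean log2 fold change of 1.25 (SE 0.31, adjusted p 0.0034 by edgeR's quasi-likelihood test), SPP1 of 2.15 (SE 0.65, 0.0133), the CD68 locus of 0.79 (SE 0.11, 3.84e-05) and MERTK of 0.37 (SE 0.10, 0.0072). CD14, which did not pass on any single day, passed here at 0.63 (SE 0.23, adjusted p 0.0290 by edgeR), but not without any 1 of HT3 replicate 3, HT5 replicate 1, HT7 replicate 1, NT3 replicate 2, NT5 replicate 3, NT7 replicate 2 and NT7 replicate 3. The value was then between 0.48 and 0.61, and its adjusted p reached 0.110 by edgeR without HT5 replicate 1. MARCO passed at -0.79 (SE 0.30, adjusted p 0.0402 by edgeR), but not without any 1 of HT3 replicates 1 and 2, HT5 replicate 2, HT7 replicates 1 and 3, NT3 replicate 3, NT5 replicates 1 and 2 and NT7 replicates 1 and 3. The value was then between -0.80 and -0.63, and its adjusted p reached 0.134 by edgeR without HT5 replicate 2. With the replicate number as a block, MARCO's adjusted p for the mean was 0.0597 by edgeR.

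The hyperoxia effect on day 7 was compared with that on day 3 as an interaction. Of the 10 markers 2 passed, against 20.5% of all rows. The CD68 locus rose more on day 7, by 0.94 (SE 0.26, 95% interval 0.38 to 1.49, adjusted p 0.0216 by edgeR's quasi-likelihood test), and MARCO fell more, with a difference of -2.24 (SE 0.71, -3.76 to -0.72, adjusted p 0.0402). Neither held throughout. With the replicate block MARCO was at -2.16 with an adjusted p of 0.0679 by edgeR, and it did not pass without any 1 of the HT3 samples, HT7 replicates 1 and 3, NT3 replicates 1 and 2 and NT7 replicates 1 and 3, at values between -2.42 and -1.83. The CD68 locus was lost without HT3 replicate 2, HT7 replicate 1, NT3 replicate 3 or NT7 replicate 2, with values of 0.82, 0.74, 0.89 and 0.84. The difference was 2.94 (-0.34 to 6.23) for SPP1, 1.37 (-0.18 to 2.91) for CD163, -1.26 (-2.60 to 0.08) for MRC1 and -0.09 (-1.23 to 1.04) for CD14, and none of these passed.

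Within each oxygen level, the markers were also compared between days 3 and 7. In hyperoxia, 4 of 10 rose from HT3 to HT7, against 44.3% of all rows, a comparison that shares the HT7 samples with the one above. The log2 fold change was 2.27 (SE 0.51) for CD163, with an adjusted p of 0.0031 by edgeR's quasi-likelihood test, which made it a DEG. It was 3.35 (SE 1.07, adjusted p 0.0304 by edgeR) for SPP1, 1.05 for the CD68 locus and 0.65 for MERTK. The SPP1 call was lost without HT3 replicate 1, HT3 replicate 2, HT7 replicate 2 or HT7 replicate 3, the value being 2.96, 2.89, 3.08 and 3.31. MARCO was at -1.28 (-2.37 to -0.20) with an adjusted p of 0.0554 by edgeR, and it passed with DESeq2, in a fit of these groups alone, and without HT7 replicate 2. In normoxia, 0 of 10 passed, against 0% of all rows, 0 markers had an unadjusted p under 0.05 by edgeR and DESeq2 called 0 of them, while over all rows 824 had an unadjusted p under 0.05 by edgeR and DESeq2 called 39. The normoxia values were 0.96 (-0.11 to 2.02) for MARCO, 0.78 (-0.07 to 1.63) for CSF1R, 0.90 (-0.20 to 2.00) for CD163 and 0.41 (-1.94 to 2.76) for SPP1.

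For each marker, the locus with the most similar pattern was found by the root mean square difference of centred log2 CPM over the 17 samples. For C1QB it was the neighbouring C1QC, at 0.35, and for CSF1R it was EVI2A, at 0.18, followed by CTSS and IL10RA. For MERTK it was CMTM6 at 0.16, for CD14 IFNGR2 at 0.23, for MRC1 MFSD13A at 0.29 and for C1QA FOLR3 at 0.46. The CD68 locus was closest to ZPR1, at 0.11. For MARCO (PODN, 0.53), CD163 (ATP1B3, 0.55) and SPP1 (PYY, 0.87) even the nearest locus was farther off, and these 3 genes also varied most, with a root mean square deviation from their own mean of 0.87, 1.12 and 2.19.

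Other genes of each type were read from lists of known markers. Of 9 further genes shared by myeloid cells, 0 passed by edgeR on days 3, 5 or 7, against 1.03%, 31.3% and 47.4% of all rows. At an unadjusted p under 0.05 there were 1, 0 and 1 of them, and DESeq2 called 0. The gene with the smallest adjusted p was ITGB2, the beta chain of the leukocyte integrins, whose counts are shared with another row of its locus, at -0.34 on day 7 (adjusted p 0.0773 by edgeR's quasi-likelihood test), and with the replicate block it passed (adjusted p 0.0354). Their median log2 fold change was 0.37, 0.24 and -0.18 on the 3 days. The sum of these genes ranged from 1084 to 1276 CPM in NT7 and from 954 to 1124 CPM in HT7, so general leukocyte genes overlapped on the day on which SPP1 and MARCO did not.

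Of 11 other alveolar macrophage genes, 3 rose and 1 fell on day 7, when 47.4% of all rows passed. PLIN2, a lipid droplet protein of foamy macrophages and of many other cells, rose by 2.11 (SE 0.25, adjusted p 1.99e-05 by edgeR's quasi-likelihood test), and INHBA, the activin A subunit, by 2.41 (SE 0.46, 0.00060). The counts of INHBA were low, 5 to 7 in the NT7 samples and 16 to 69 in the HT7 samples. MSR1, a scavenger receptor, rose by 1.71, and SIGLEC1, a sialic acid receptor, fell by 0.98 on the log2 scale; this pair is named after its values were seen. On day 5, PLIN2 rose by 1.01 and SIGLEC1 fell by 0.88 on the log2 scale, with PLIN2 lost without HT5 replicate 2 (adjusted p 0.146 by edgeR) and in a fit of these groups alone. On day 3, 0 passed by edgeR (1 at an unadjusted p under 0.05) or DESeq2. SIGLEC1 thus fell on day 7, as MARCO did, but also on day 5, when MARCO did not pass. The median log2 fold change of the list on day 7 was 0.37.

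Of 8 other interstitial macrophage genes, 0 rose and 4 fell on day 7, a share near the 47.4% of all rows. CX3CR1, the fractalkine receptor, was at -2.65 (SE 0.61, adjusted p 0.0029 by edgeR's quasi-likelihood test) and SLC40A1, the iron exporter ferroportin, at -1.41 (SE 0.20, 6.37e-05). LYVE1, a hyaluronan receptor of perivascular macrophages and lymphatic vessels, was at 0.93 on day 3 (SE 0.20, adjusted p 0.0408 by edgeR) and at -0.76 on day 7 (SE 0.20, 0.0060). Its day 3 call was lost with the replicate block (adjusted p 0.0663) and without any 1 of HT3 replicates 1 and 2 and NT3 replicates 1, 2 and 3, with adjusted p-values by edgeR of up to 0.19. STAB1, the remaining gene that fell, one that endothelium also makes and named after its value was seen, was at -0.39 on day 7. On day 5, STAB1 (-0.69) and SLC40A1 (-0.89) fell, SLC40A1 not without HT5 replicate 2 (adjusted p 0.124 by edgeR). CD163 and MERTK rose on the day on which these 4 fell. Of 7 lymphatic genes, LYVE1 among them, 2 fell on day 7, and of 6 endothelial genes 4 fell, beside 47.4% of all rows, and their part in these values was not tested.

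Of 12 other monocyte genes, 3 rose and 2 fell on day 7, against 47.4% of all rows that passed in either direction. THBS1, a matrix protein of activated monocytes, platelets and stroma, rose by 2.54 (SE 0.35) on day 5 and by 3.34 (SE 0.31, adjusted p 5.71e-06 by edgeR's quasi-likelihood test) on day 7. IL1B, the inflammatory cytokine, rose by 2.37 (SE 0.56, adjusted p 0.0061 by edgeR) on day 5 and by 1.53 on day 7. The IL1B call was lost on day 5 without HT5 replicate 1 (1.61, adjusted p 0.0677 by edgeR), and on day 7 without HT7 replicate 1, NT7 replicate 2 or NT7 replicate 3 (adjusted p up to 0.0928). TREM1, an activating receptor named here after its value was seen, rose by 1.67 on day 7. CD36, a fatty acid and scavenger receptor that capillary endothelium also carries, fell by 2.01 on the log2 scale (SE 0.33, adjusted p 0.00026 by edgeR) on day 7, and LYZ, lysozyme, named after its value was seen and sharing its counts with another row of its locus, by 0.91. On day 5, 2 rose and CD36 fell, against 31.3% of all rows, CD36 not without HT5 replicate 2 (adjusted p 0.0759 by edgeR), and DESeq2 called TREM1 as well. On day 3, 0 of the 12 passed by edgeR, 6 had an unadjusted p under 0.05, beside 2013 of the 13142 rows, and the median was 0.48 with 11 of 12 above 0. The exception was VCAN, the proteoglycan versican, named after its value was seen, at -0.88, the single gene that DESeq2 called that day.

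Of 11 other genes of monocyte-derived or SPP1-high macrophages, 6 rose and 1 fell on day 7, when 47.4% of all rows passed, with a median log2 fold change of 1.35. LGALS3, galectin 3, rose by 0.98 on day 5 and by 1.501 on day 7 (SE 0.18, adjusted p 1.76e-05 by edgeR's quasi-likelihood test), and CTSK, the collagenolytic cathepsin K, whose counts are those of a locus of 2 rows, by 0.77 and 1.35 (SE 0.23, 0.00028). The day 5 call of CTSK was lost in a fit of these groups alone (adjusted p 0.147 by edgeR) and without any 1 of HT5 replicates 1 and 2 and NT5 replicates 2 and 3. The other genes that rose on day 7 were FABP5, CHI3L1, LPL and CTSD, between 0.86 and 1.94, and the tetraspanin CD9 fell by 0.52 on the log2 scale. TREM2, a lipid receptor, at 1.57, GPNMB, a lysosomal glycoprotein, at -0.66, and MMP12, macrophage elastase, at -0.23 did not pass on day 7. These 8 are named after their values were seen. The summed level of the list was 2133 to 2750 CPM in NT7 and 4333 to 5625 CPM in HT7, which did not overlap. The largest group means in HT7 were those of CHI3L1 (1034 CPM), LPL (1021 CPM) and CTSK (848 CPM), while TREM2 was at 7.74 CPM. The part of cells other than macrophages in these values was not tested. On day 3, 0 passed by edgeR, adjusted or not, or by DESeq2.

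**Figure D4:**
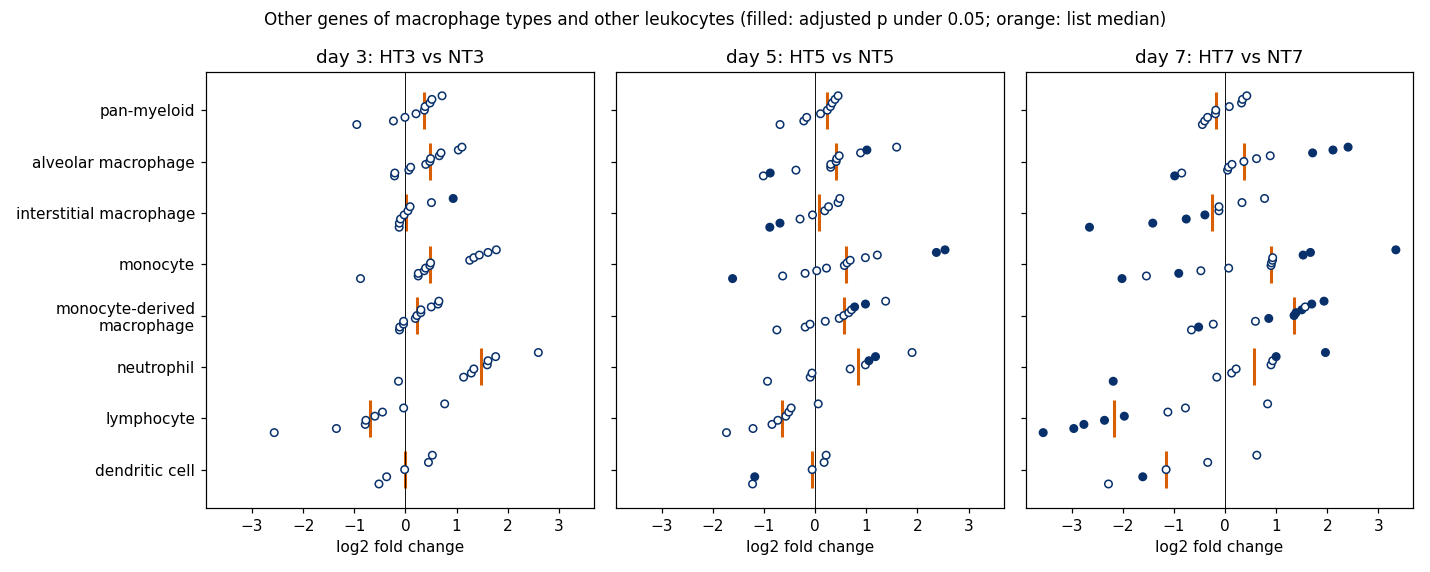
Log2 fold change of hyperoxia against normoxia on days 3, 5 and 7 for further genes of each macrophage type and of other leukocytes, 1 point per gene, filled where the adjusted p was under 0.05, with an orange bar at the list's median. On day 7 the monocyte-derived list has its median at 1.35 and the interstitial list at -0.26.

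The ligands and partners of the markers were read as well, 16 of which could be tested. PROS1, which encodes protein S, a bridging ligand of MERTK, was at 0.08 on day 3, -1.75 on day 5 and -2.24 on day 7 (SE 0.27, adjusted p 2.45e-05 by edgeR's quasi-likelihood test), so it fell while MERTK rose. GAS6, the other such ligand, was not analysed here. CSF1, the main ligand of CSF1R, rose on day 5 by 1.18 (SE 0.35, adjusted p 0.0191 by edgeR), from 29.5 ± 8.62 CPM (SD, n = 3) in NT5 to 67.1 ± 26.8 CPM (n = 2) in HT5, and was at 0.33 and 0.63 on days 3 and 7. The day 5 call was lost without HT5 replicate 1 (0.70, adjusted p 0.205 by edgeR), NT5 replicate 2 or NT5 replicate 3. IL34, its other ligand, was near the detection limit with at most 23 counts in any sample, and CSF2, the growth factor of alveolar macrophages, was between 0.115 and 2.84 CPM in HT7 and between 3.08 and 4.36 CPM in NT7. These ranges did not overlap, but CSF2 did not pass by edgeR (-1.68, adjusted p 0.0679), whereas DESeq2 called it. HMOX1, haem oxygenase 1, which degrades the haem that CD163 brings in, rose by 1.91 (SE 0.38, adjusted p 0.0011 by edgeR) on day 7. The complement proteases C1R and C1S, partners of C1q that stromal cells also make, named after their values were seen, rose on days 5 and 7, by 1.90 and 1.499 and by 1.37 and 1.24, while C1QA and C1QB did not pass. In all, 4 rose and 1 fell on day 5, and 5 rose and 2 fell on day 7, shares close to the 31.3% and 47.4% of all rows. On day 3, 0 passed by edgeR or DESeq2, and 3 had an unadjusted p under 0.05.

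Markers of other leukocytes moved beside these genes, and S100A8 and S100A9 stand in both the neutrophil and the monocyte list. Of 8 neutrophil genes, 0 passed on day 3 by edgeR, though 7 had an unadjusted p under 0.05 and DESeq2 called 2, beside 2013 and 505 of the 13142 rows. Of the 8 genes, 2 rose on day 5, and 2 rose and 1 fell on day 7, when 31.3% and 47.4% of all rows passed. The CXCR2 call was lost on day 5 without any 1 of the HT5 samples and NT5 replicates 2 and 3, and on day 7 without any 1 of HT7 replicates 1 and 3 and NT7 replicates 1 and 3 and in a fit of these groups alone. That of MMP9 on day 7 was lost without HT7 replicate 3 or any 1 NT7 sample. The summed level of the list was 280 to 639 CPM in NT3 and 974 to 1400 CPM in HT3, and most of it came from S100A8 and S100A9. On that day S100A8, CSF3R, MPO and LTF, named after their values were seen, overlapped between the groups. It was 817 to 995 CPM in NT7 and 948 to 2836 CPM in HT7. Of 8 lymphocyte genes, 5 fell on day 7, against 47.4% of all rows. On days 3 and 5, 0 passed by edgeR or DESeq2, with 1 on each day at an unadjusted p under 0.05. The sums of the list were 9.23 to 17.01 CPM in NT7 and 3.48 to 5.02 CPM in HT7. In the HT7 samples the counts were low, 1 to 7 for CD3D, 2 to 4 for MS4A1 and 4 to 22 for CD79B. Of 5 dendritic cell genes, ZBTB46 alone passed by edgeR, falling on days 5 and 7, and on day 7 XCR1 (-2.28, adjusted p 0.0590 by edgeR) was also called by DESeq2 and in a fit of these groups alone. The part of these cells in the values of CD14, SPP1 and the other shared genes was not tested.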

How the data were processed

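RNA of the lung of preterm rabbit pups was sequenced by the authors on an Illumina NovaSeq, and the submitters' processing notes name FastQC, STAR 2.7.10a and OryCun2.0. The deposited table holds raw read counts per gene, not normalised, for 17 samples, and the counting program is not given in the sources used here. Of its 13827 rows, many share a locus and hold identical counts, leaving 13313 loci. The 10 markers and all other lists were chosen with earlier results of these data known. Rows were filtered with filterByExpr, scaled by TMM and fitted by edgeR 4.0.16 (R 4.3.3, limma 3.58.1) with quasi-likelihood and 1 coefficient per group, with Benjamini-Hochberg adjustment over 13142 rows. Library totals counted each locus once. CPM used TMM-scaled totals, and log2 CPM a prior count of 2. Samples were grouped by their labels.

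Replicate numbers stand in the labels with no stated meaning. Deviations from the group means of same-numbered HT and NT samples correlated at 0.166, 0.131 and 0.199 on day 3, 0.264 and 0.141 on day 5 and 0.174, 0.109 and 0.0695 on day 7, so every pair was over 0.1 on days 3 and 5, of which only day 3 had 3 pairs, and the fit with the number as a block was an alternative. Replicates were compared by a chi-square of their counts, and none agreed within sampling noise (15.5 to 87.3 per gene). The other alternatives were DESeq2 1.42.0 and its size factors, no filter on low counts, a prior count of 2, 1 row per locus, only the groups compared, and each library left out in turn. In simulated counts with 200 genes changed by a log2 fold change of 3, 99.5%, 96.5% and 99% were recovered on days 3, 5 and 7, with 0, 0 and 1 other calls, over 12982, 12970 and 12974 genes. Most changes of the markers were smaller than 3, and the recovery of smaller changes was not simulated.

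Genes named beside the markers were the ligands CSF1, IL34, CSF2 and PROS1, up to 4 DEGs of each list by adjusted p or, with fewer than 2, the 2 genes with the smallest adjusted p, and the nearest pattern of each marker. Every other gene named from the lists, and the patterns next nearest to CSF1R, were added after their values were seen.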

Additional observations from a re-analysis of the deposited data

Results flagged for a closer look

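The hyperoxia effect differed between days 3 and 7 for 2 of the 10 markers, against 20.5% of all rows. The test was the interaction in edgeR's quasi-likelihood fit with Benjamini-Hochberg adjustment. The day 7 effect minus the day 3 effect was 0.94 on the log2 scale for the CD68 locus (adjusted p 0.0216) and -2.24 for MARCO (adjusted p 0.0402). Of the other genes named from the macrophage and monocyte lists and the ligands, the same test gave 1.71 for PLIN2, 2.62 for INHBA, 2.95 for THBS1, 1.1995 for LGALS3 and 1.05 for CTSK, whose effects were higher on day 7. It gave -2.53 for CX3CR1, -1.39 for SLC40A1, -2.51 for CD36 and -2.32 for PROS1, whose effects were lower on day 7. For LYVE1 the difference was -1.69 (adjusted p 0.0019 by edgeR), and every HT3 sample was above every NT3 sample, with a log2 fold change of 0.93, while every HT7 sample was below every NT7 sample, with -0.76. The day 3 call of LYVE1 was lost with the replicate block and without any 1 of 5 of the 6 libraries of that day. The MARCO difference did not pass with the replicate block either (adjusted p 0.0679 by edgeR). Both marker calls were lost without some single libraries. No group held more than 3 samples, so single samples were not tested as outliers.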

How the results depend on the processing

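For the 10 markers, 60 results had 920 values under alternatives. Of these, 834 kept direction and side of the threshold, 43 lost and 13 gained a call, and 30 changed sign, 0 of them past the threshold in either fit. DESeq2 called 1 marker a DEG on day 5 and 2 on day 7. With the replicate block, 1 marker differed between days 7 and 3 (MARCO lost, at -2.16), MARCO's mean of days was also lost (adjusted p 0.0597), and no other call of a marker changed. Leaving out 1 library gave 1 to 6 markers on day 5, 3 to 5 on day 7 and 0 to 3 for day 7 minus day 3, with 0 to 1 DEGs on days 5 and 7. Signs turned with 1 library left out, on day 3, for CSF1R (-0.006 to 0.80), MARCO (-0.20 to 0.49), CD163 (-0.30 to 0.48) and SPP1 (-0.88 to 1.68), and on day 5 for MARCO (-1.02 to 0.26), MRC1 (-1.53 to 0.29), C1QA (-1.51 to 0.78) and C1QB (-1.07 to 0.85). They also turned for C1QB in the mean of days (-0.59 to 0.043), for day 7 minus day 3 in CSF1R (-0.48 to 0.32), C1QA (-0.52 to 0.48), C1QB (-0.12 to 0.53) and CD14 (-0.40 to 0.12), and from HT3 to HT7 in C1QA (-0.26 to 0.74). The cause was not tested. Calls were gained by MRC1 without HT7 replicate 2 (day 7 minus day 3, -1.95; HT7 against HT3, -1.35) and in the mean of days without HT5 replicate 1 (-0.64), and by CSF1R without NT5 replicate 1 in the mean of days (0.69) and without HT3 replicate 3 from HT3 to HT7 (1.10). The 44 results of other named genes had 556 values, of which 514 kept direction and side, 39 lost and 3 gained a call, among them LYVE1 lost on day 3 and ITGB2 gained on day 7 with the replicate block. Genes named after their values were seen were not run. The fit of only the groups compared was not run for the mean of days or day 7 minus day 3. C1QA, C1QB and CD163 had the fewest counts of the markers, and SPP1 the widest spread, so small differences in these genes were not detectable.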

Other observations

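Genes of cells that can also carry some of these markers were read as lists, beside 31.3% of all rows that passed on day 5 and 47.4% on day 7. Of 7 alveolar type 2 genes, 0 passed by edgeR on days 3 and 5 (2 and 1 at an unadjusted p under 0.05; DESeq2 called 0 and 1). On day 7, SFTPA1, a surfactant protein, rose by 1.17 and NAPSA, a protease that processes surfactant proteins, was at -1.49 (adjusted p 0.0229 and 0.0066 by edgeR's quasi-likelihood test). The SFTPA1 call was lost without HT7 replicate 2, NT7 replicate 2 or NT7 replicate 3, with an adjusted p of up to 0.0877. Of 6 fibroblast genes, 0 passed by edgeR or DESeq2 on day 3 (2 at an unadjusted p under 0.05) and 3 fell on day 5, TCF21 not without HT5 replicate 2 (adjusted p 0.194 by edgeR). On day 7, LUM, the matrix proteoglycan lumican, rose by 1.25, while TCF21, a transcription factor of lipofibroblasts, fell by 1.56 on the log2 scale and COL1A2, a chain of collagen I named after its value was seen, fell by 0.45.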
